A study of Mus musculus with 12 samples.

Results

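The 36 genes described here encode the carrier, enzymes and regulators that bring pyruvate into mitochondria, oxidise it, run the tricarboxylic acid (TCA) cycle and join the cycle to glutamate and aspartate. They were taken from a list of symbols with no threshold on a measured value, drawn up with earlier results of these data known. All 36 were found among the 21959 genes of the deposited table, and all 36 passed the filter on low values. That filter kept 11996 genes with at least 1 TPM (a transcript-level share of the library, corrected for length) in all 3 libraries of any group. The RNA came from C8-D1A, an established mouse line labelled as astrocytes, after 24 h in 1 of 4 conditions with 3 libraries each. The tested conditions were medium with NaHCO3 at 0.2 g/L (called low-NaHCO3 here), medium with 20 mM lactic acid, and an incubator with 15% CO2. Control cells were kept at 37 °C with 5% CO2. The descriptions of some replicates give other numbers after "CO" or for the added reagent, rising by 1 with the replicate, and these were read as copying errors. The labels give neither the pH reached nor the incubator's CO2 for the lactic acid and low-NaHCO3 cells. They do not say whether replicates were separate cultures, so p-values measure the spread between these libraries.

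Pyruvate enters mitochondria through the MPC1 and MPC2 carrier. The pyruvate dehydrogenase complex turns it into acetyl-CoA, is switched off by PDK kinases and is switched on again by PDP phosphatases, while pyruvate carboxylase (Pcx) makes oxaloacetate instead. Citrate synthase joins acetyl-CoA to oxaloacetate, and the cycle then passes through isocitrate, 2-oxoglutarate, succinyl-CoA, succinate, fumarate and malate. Glutamate enters as 2-oxoglutarate through glutamate dehydrogenase or the aspartate aminotransferases, and astrocytes are known for pyruvate carboxylation and for making glutamine from glutamate.

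Control library 1 stood apart, and counts and most changes against control are therefore given with it and without it. Its Spearman correlation with the other 11 libraries over all 21959 genes, without the filter, was 0.859 to 0.884, against 0.958 to 0.98 among those 11. It held the highest level of 9 of 9 neuron markers, with a summed level of 2399 TPM against 92.3 to 144.8 TPM in the others. Markers of oligodendrocytes (6 of 6, 908.7 against 35.2 to 76.8 TPM), microglia (5 of 5, 120.5 against 3.86 to 10.9 TPM), endothelium (3 of 3, 55.9 against 14.7 to 17.9 TPM) and red blood cells (3 of 3, 324 against 0.221 to 2.74 TPM) were also highest in it. Of 10 markers listed for the line and for astrocytes, 8 were highest in it, among them Slc1a3 at 145.0 TPM, Gfap at 64.3 TPM and Aqp4 at 45.3 TPM. In the other 11 libraries 6 of the 10 (Aqp4, Slc1a2, Slc1a3, Gfap, Gja1 and Aldh1l1) stayed at or below 1.19 TPM, and Slc1a3 was listed at 0 in 10 of them. The remaining 4 were expressed there, with Glul (glutamine synthetase) at 43.7 to 74.9 TPM, S100b at 33.5 to 49.8 TPM, S100a6 at 255 to 978 TPM and Vim at 1327 to 2678 TPM. Of the 36 genes, 7 were more than 1.5 times their mean of control libraries 2 and 3 in control library 1, led by Pdk2 (8.92 times), Pdk4 (3.13), Pdp1 (2.76) and Mpc1 (2.57). Me2 (0.602 of that mean) and Suclg2 (0.667) were lower by at least 1.5 times, and 27 lay between. The part of the other cell types' RNA in these values was not tested, and in bulk RNA fewer cells of a type and less RNA per cell cannot be told apart.

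**Figure D1:**
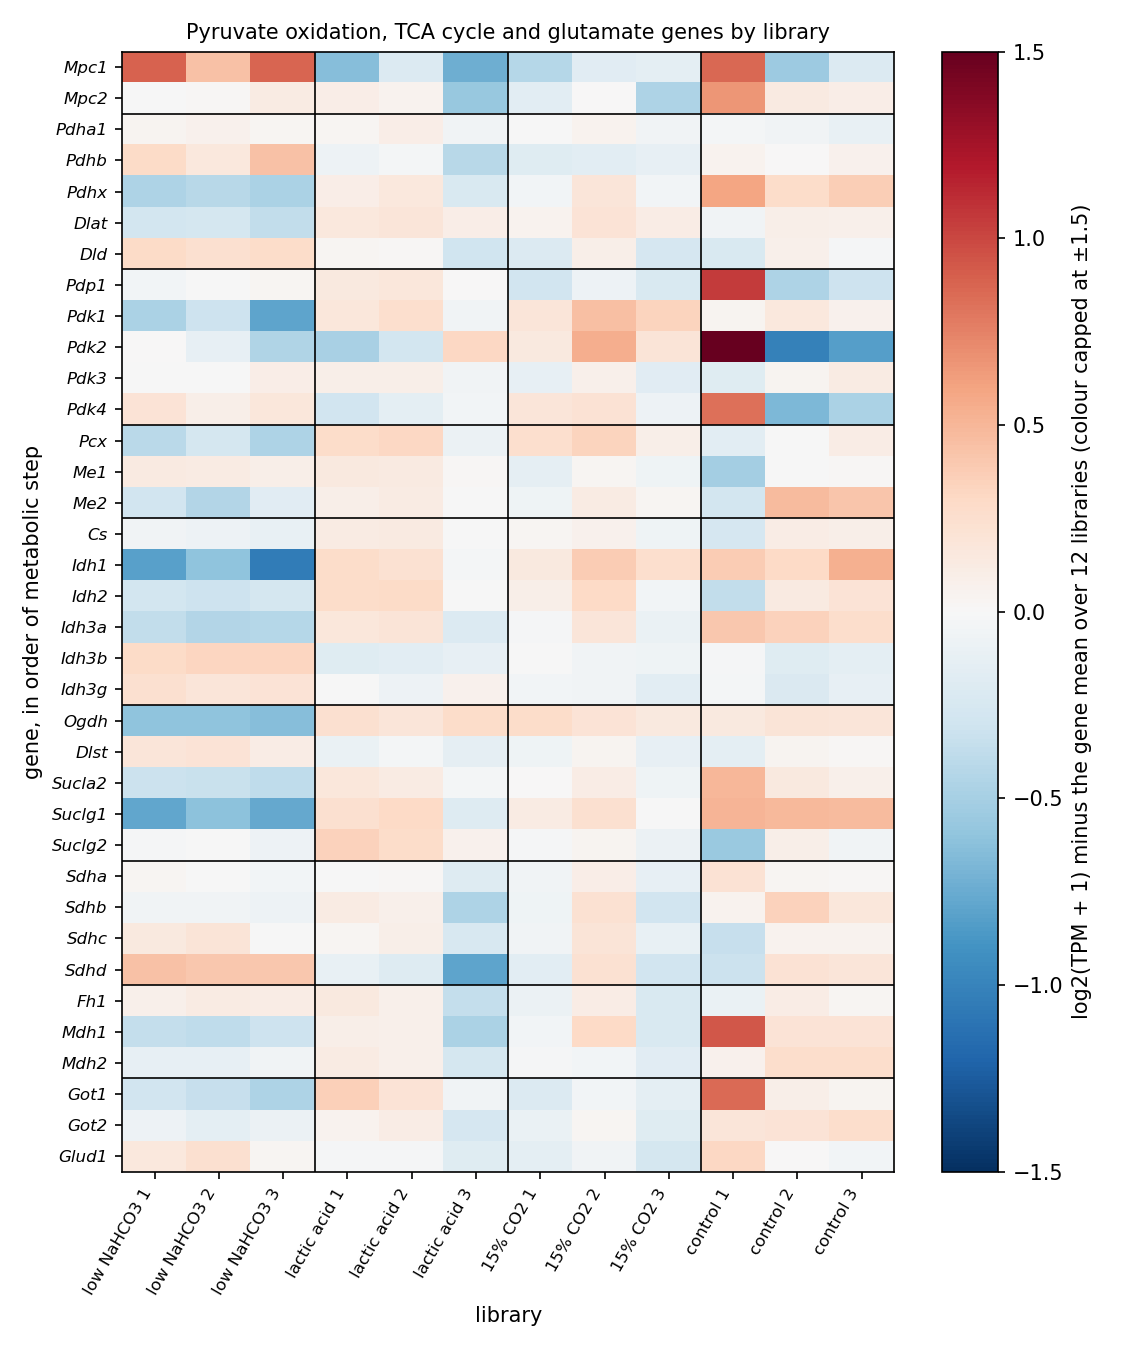
Level of the 36 genes in each of the 12 libraries, as log2(TPM + 1) minus the gene's mean over the 12 libraries (colour, capped at ±1.5), with libraries in columns and genes in rows in order of metabolic step. The 3 low-NaHCO3 columns are low for Idh1, Suclg1, Ogdh and Pdhx and high for Mpc1, Idh3b and Idh3g, and the control 1 column is high for Pdk2, Pdp1, Mdh1 and Got1.

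Most of the 36 genes were abundant; group averages below are means ± SD of 3 libraries. The mean over the 12 libraries was at least 100 TPM for 21 of them and under 20 TPM for 4, which were Mpc1 and Mpc2 of the pyruvate carrier and the kinases Pdk2 and Pdk4. Sdhd (membrane anchor of succinate dehydrogenase) had the highest mean, 343 TPM, followed by Cs (citrate synthase, 317 TPM), Sdha (flavoprotein of succinate dehydrogenase, 314 TPM) and Mdh1 (cytosolic malate dehydrogenase, 312 TPM). Within treatments the genes tended to move by library: lactic acid replicate 3 held the lowest of the 3 values for 31 of the 36 genes, 15% CO2 replicate 3 for 26, and 15% CO2 replicate 2 held the highest for 30. This was not counted over all genes, so it cannot be called particular to the 36. Over the genes tested, deviations of lactic acid and 15% CO2 replicate 3 from their group means correlated at 0.49.

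In low-NaHCO3 medium 14 of the 36 genes fell and 3 rose against control, and the 6 largest falls were those of Idh1, Suclg1, Pdhx, Mdh1, Ogdh and Idh3a. The 17 called genes are 47.2% of the 36, where 56.2% of the 11996 genes tested were called in this comparison (20.5% up and 35.8% down; limma on log2(TPM + 1), Benjamini-Hochberg adjusted p under 0.05). With median-of-ratios scaling 21 of the 36 were called (58.3%), as were 6810 of 11984 genes tested. In the fit of 12 libraries without that scaling, the median log2 change of the 36 was -0.16, beside -0.19 over all genes tested. Without control library 1, 22 of the 36 were called, 6 up and 16 down (61.1%), where 64.6% of 12023 genes were called (23.1% up and 41.5% down). The medians were then -0.06 for the 36 and -0.18 for all genes. The genes that kept both call and direction in these 2 fits numbered 16: Idh3b and Idh3g up, and Idh1, Suclg1, Pdhx, Mdh1, Ogdh, Idh3a, Got1, Pdk1, Sucla2, Me2, Pcx, Dlat, Got2 and Mdh2 down.

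The split between rises and falls depended on the scaling. With median-of-ratios scaling, which brought the median of all genes from -0.19 to -0.01, 12 of the 36 were called up and 9 down. Over the 11984 genes tested under that scaling, 3571 were called up and 3239 down. Of the 36, those called up, besides Dld, Idh3b and Idh3g, were Mpc1 (log2 change 0.88), Pdha1 (0.31), Pdhb (0.45), Me1 (0.48), Dlst (0.39), Sdhc (0.39), Sdhd (0.59), Fh1 (0.29) and Glud1 (0.25). With a trend on transcript length removed, a check chosen after seeing the data, 11 of the 36 were called up and 8 down. Over the 11996 genes tested, 3638 were then called up and 2930 down. With quantile normalization 3 of the 36 were called up and 15 down, beside 3054 up and 2732 down over the 11996. All 17 genes called in the fit of 12 libraries kept their sign under all 35 alternatives, and 8 of them (Pdhx, Idh1, Idh3a, Idh3b, Ogdh, Sucla2, Suclg1 and Got1) also kept their call under all 35.

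**Figure D2:**
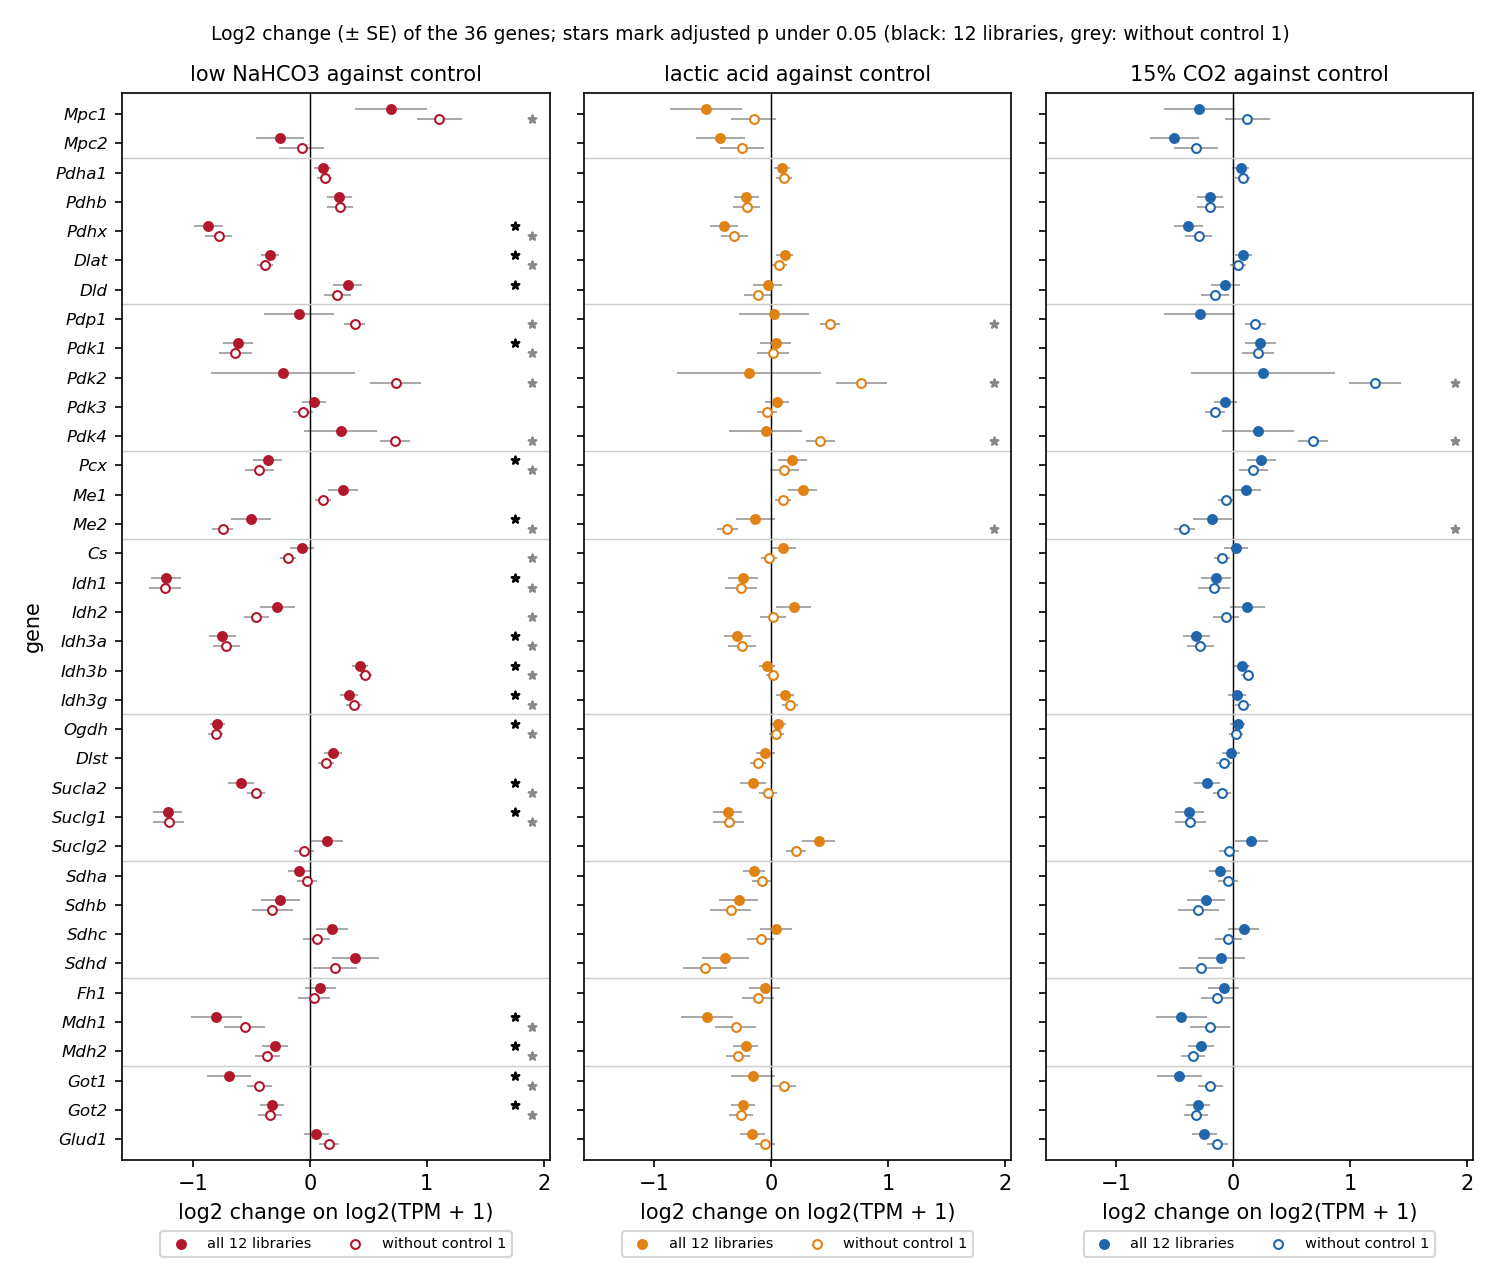
Log2 change on log2(TPM + 1) (x axis, ± SE) of each of the 36 genes (y axis) for low NaHCO3, lactic acid and 15% CO2 against control, from all 12 libraries (filled) and without control 1 (open), with stars for adjusted p under 0.05. Stars in both fits appear for 16 genes under low NaHCO3 and for none under lactic acid or 15% CO2.

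Promoter sequence is shown for 4 of these genes. A pair that fell (Pdhx and Sucla2) is set beside a gene that rose (Idh3g) and Suclg2, which was not called. Sucla2 and Suclg2 are the alternative beta subunits of succinyl-CoA ligase. The 250 bases before each start are from RefSeq on GRCm38.p6, an older build than the GRCm39 of the processing. They lie at chr2:103073514-103073763 (minus strand) for Pdhx, chr14:73552536-73552785 (plus strand) for Sucla2, chrX:73786898-73787147 (minus strand) for Idh3g and chr6:95718847-95719096 (minus strand) for Suclg2. Capitals mark a GC box (GGGCGG on either strand) or a CCAAT box (CCAAT on either strand).
Pdhx: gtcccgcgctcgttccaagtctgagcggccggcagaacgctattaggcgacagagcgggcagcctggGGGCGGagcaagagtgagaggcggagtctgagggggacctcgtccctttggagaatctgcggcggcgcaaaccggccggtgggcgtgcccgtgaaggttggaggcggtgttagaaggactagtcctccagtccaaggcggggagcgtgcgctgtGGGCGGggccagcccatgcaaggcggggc
Sucla2: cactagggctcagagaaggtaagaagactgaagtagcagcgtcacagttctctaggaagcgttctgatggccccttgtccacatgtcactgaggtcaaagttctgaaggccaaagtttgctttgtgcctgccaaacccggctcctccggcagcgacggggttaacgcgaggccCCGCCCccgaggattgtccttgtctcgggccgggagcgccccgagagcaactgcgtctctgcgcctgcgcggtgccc
Idh3g: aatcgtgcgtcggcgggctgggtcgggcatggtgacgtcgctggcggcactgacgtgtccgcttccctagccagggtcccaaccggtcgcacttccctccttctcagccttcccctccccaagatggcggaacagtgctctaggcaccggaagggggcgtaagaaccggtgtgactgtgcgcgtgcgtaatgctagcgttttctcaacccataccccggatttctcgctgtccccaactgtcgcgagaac
Suclg2: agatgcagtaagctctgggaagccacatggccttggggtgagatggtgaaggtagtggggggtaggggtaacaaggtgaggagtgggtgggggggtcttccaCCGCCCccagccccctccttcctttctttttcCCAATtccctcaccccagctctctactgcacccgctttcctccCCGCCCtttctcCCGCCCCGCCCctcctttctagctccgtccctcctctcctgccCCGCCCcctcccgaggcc
Pdhx holds 2 GC boxes, Sucla2 1, Suclg2 5 GC boxes (a pair of which overlap) and 1 CCAAT box, and Idh3g none of either. The 4 were picked by hand. Among genes not shown, Suclg1, which fell, had neither box, and Idh3b, which rose, had a CCAAT box. A link between the boxes and the direction of change was not tested. Over 43 windows of 32 of the 36 genes, a GC box was present in 55.8% and a CCAAT box in 53.5%, beside 32.7% and 33.8% of all 32851 windows of that length. The cyclic AMP response element TGACGTCA was in 4 of the 43 windows (9.30%), beside 1.55% of all. Those 4 windows belong to only 2 of the 32 genes, Mdh2 and Ogdh, so windows of the same gene were counted more than once. The letters TCAAGGTCA, bound by oestrogen-related receptors, were in 0 of the 43, beside 0.387% of all. All motifs were read on both strands. Matches are a description of these windows, and the GC content of the 4 shown (61.2% to 68.4%) was above the median of all windows (52.4%).

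At the pyruvate carrier, Mpc1 had 14.4, 10.3 and 14.4 TPM in the low-NaHCO3 libraries and 4.36, 6.27 and 4.05 TPM with lactic acid. Mpc1 was at 5.19, 6.40 and 6.58 TPM under 15% CO2, against 14.1, 4.72 and 6.28 TPM in controls. The low-NaHCO3 values were the highest of the treatments, and control library 1 lay with them while control libraries 2 and 3 lay with the other treatments. The log2 change in low NaHCO3 was 0.70 ± 0.31 (SE; adjusted p 0.0727), not past the threshold with 12 libraries, and 1.11 ± 0.19 (SE; adjusted p 0.000423) without control library 1. Mpc2, its partner subunit, averaged 11.01 ± 0.541 TPM in low NaHCO3, 9.80 ± 2.58 TPM with lactic acid and 9.21 ± 1.64 TPM under 15% CO2, against 13.5 ± 3.38 TPM in controls and was called in neither fit. The ratio of Mpc1 to Mpc2 levels, chosen after seeing the values, averaged 1.18 ± 0.203 in low NaHCO3, 0.512 ± 0.115 with lactic acid, 0.676 ± 0.180 under 15% CO2 and 0.587 ± 0.207 in controls (SD, n = 3 each).

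Among the 5 pyruvate dehydrogenase subunits 2 fell and 1 rose in low NaHCO3. Pdhx, the protein that anchors the E3 component, had 19.6, 20.4 and 19.4 TPM in the low-NaHCO3 libraries and 29.5, 30.8 and 23.2 TPM with lactic acid. Pdhx was at 26.7, 31.2 and 26.6 TPM under 15% CO2, against 41.8, 33.5 and 35.9 TPM in controls. Every low-NaHCO3 library was below every other library, and the lactic acid and 15% CO2 libraries were below the controls. Its log2 change in low NaHCO3 was -0.87 ± 0.12 (SE; adjusted p 0.000157), and -0.78 ± 0.12 (SE; adjusted p 0.000136) without control library 1. Dlat, the E2 acetyltransferase, averaged 94.7 ± 3.89 TPM in low NaHCO3, 129.7 ± 3.89 TPM with lactic acid and 128 ± 6.79 TPM under 15% CO2, against 120.0 ± 6.57 TPM in controls. Its log2 change in low NaHCO3 was -0.34 ± 0.07 (SE; adjusted p 0.0029), and -0.38 ± 0.07 (SE; adjusted p 0.000436) without control library 1. The call was lost with median-of-ratios scaling and with the length trend removed, where the smallest change was -0.04 (highest adjusted p over 35 alternatives 0.739). Dld, the E3 dehydrogenase shared with other complexes, had 286, 279 and 285 TPM in the low-NaHCO3 libraries and 240.0, 237 and 191 TPM with lactic acid. Dld was at 204, 251 and 198 TPM under 15% CO2, against 201, 247 and 234 TPM in controls. All low-NaHCO3 libraries were above all others, and the log2 change was 0.32 ± 0.12 (SE; adjusted p 0.0441), and 0.24 ± 0.12 (SE; adjusted p 0.0982) without control library 1. The call was lost under 20 of 35 alternatives, among them leaving out any 1 of the low-NaHCO3 libraries or control library 1 or 3 (log2 change 0.12 to 0.56, highest adjusted p 0.321). Pdhb, the E1 beta subunit, had 193, 175 and 213 TPM in the low-NaHCO3 libraries and 149.5, 154 and 117 TPM with lactic acid. Pdhb was at 138, 141 and 144 TPM under 15% CO2, against 163, 158 and 164 TPM in controls, again highest in low NaHCO3, with a log2 change against control of 0.25 ± 0.11 (SE; adjusted p 0.0654) that did not pass. The change was 0.26 ± 0.11 (SE; adjusted p 0.0667) without control library 1. Pdha1, the catalytic E1 alpha subunit, averaged 179.9 ± 2.75 TPM in low NaHCO3, 178 ± 9.24 TPM with lactic acid and 174 ± 6.79 TPM under 15% CO2, against 167 ± 4.95 TPM in controls and was called in neither fit. The ratio of Pdhx to Pdhb was 0.103 ± 0.0126 in low NaHCO3, 0.199 ± 0.00157 with lactic acid and 0.200 ± 0.0190 under 15% CO2, against 0.229 ± 0.0242 in controls (SD, n = 3 each).

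Of the kinases that inhibit the complex, Pdk1 fell in low NaHCO3. It had 24.9, 27.9 and 19.8 TPM in the low-NaHCO3 libraries and 39.6, 41.8 and 33.7 TPM with lactic acid. Pdk1 was at 39.8, 48.2 and 44.3 TPM under 15% CO2, against 36.1, 39.1 and 36.6 TPM in controls, with the low-NaHCO3 libraries below all others. The log2 change was -0.61 ± 0.13 (SE; adjusted p 0.00214), and -0.64 ± 0.14 (SE; adjusted p 0.00193) without control library 1; with the length trend removed the change was -0.29 and not called. Pdk3, the most abundant of the kinases in these cells, had 83.3, 82.9 and 89.6 TPM in the low-NaHCO3 libraries and 88.7, 89.02 and 80.5 TPM with lactic acid. Pdk3 was at 76.3, 88.2 and 74.2 TPM under 15% CO2, against 73.2, 86.02 and 91.1 TPM in controls. Its groups overlapped and it was called against control in neither fit.

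Pdk2 and Pdk4, both low in these cells, changed sign or size with control library 1. Pdk2 had 8.73, 7.91 and 6.07 TPM in the low-NaHCO3 libraries and 5.92, 6.97 and 10.99 TPM with lactic acid. Pdk2 was at 9.70, 13.1 and 10.1 TPM under 15% CO2, against 36.7, 3.80 and 4.44 TPM in controls. Control library 1 was the highest of the 12 and control libraries 2 and 3 the lowest. The log2 change in low NaHCO3 was -0.23 ± 0.62 (SE; adjusted p 0.767) with all libraries and 0.73 ± 0.22 (SE; adjusted p 0.013) without control library 1. Pdk4 had 6.36, 5.77 and 6.16 TPM in the low-NaHCO3 libraries and 4.21, 4.76 and 5.21 TPM with lactic acid. Pdk4 was at 6.22, 6.41 and 5.03 TPM under 15% CO2, against 10.3, 2.99 and 3.58 TPM in controls, with the same order of the control libraries. Its log2 change in low NaHCO3 was 0.26 ± 0.31 (SE; adjusted p 0.484), and 0.73 ± 0.13 (SE; adjusted p 0.000413) without control library 1. Pdp1, the phosphatase that opposes the kinases, averaged 36.8 ± 1.03 TPM in low NaHCO3, 39.96 ± 2.52 TPM with lactic acid and 32.1 ± 2.60 TPM under 15% CO2, against 44.4 ± 28.4 TPM in controls, where control library 1 alone had 77.1 TPM. Its log2 change in low NaHCO3 was -0.09 ± 0.30 (SE; adjusted p 0.805), and 0.38 ± 0.09 (SE; adjusted p 0.00263) without that library.

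Summed over the 4 kinases, the level was 123 ± 1.44 TPM in low NaHCO3, 137 ± 6.19 TPM with lactic acid, 140.5 ± 13.3 TPM under 15% CO2 and 141 ± 13.2 TPM in controls (SD, n = 3 each). Pdk3 made up 69.3% ± 3.84 of that sum in low NaHCO3, 62.8% ± 1.21 with lactic acid and 56.6% ± 1.11 under 15% CO2, against 46.8%, 65.2% and 67.1% in the controls. Pdk1 made up 19.6% ± 3.12, 27.9% ± 1.84 and 31.4% ± 1.55 in the same treatments, against 23.1%, 29.6% and 27.0% in the controls. Pdk2 took 23.5% of the sum in control library 1, against 2.88% and 3.27% in control libraries 2 and 3. These shares are descriptions without a test.

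**Figure D3:**
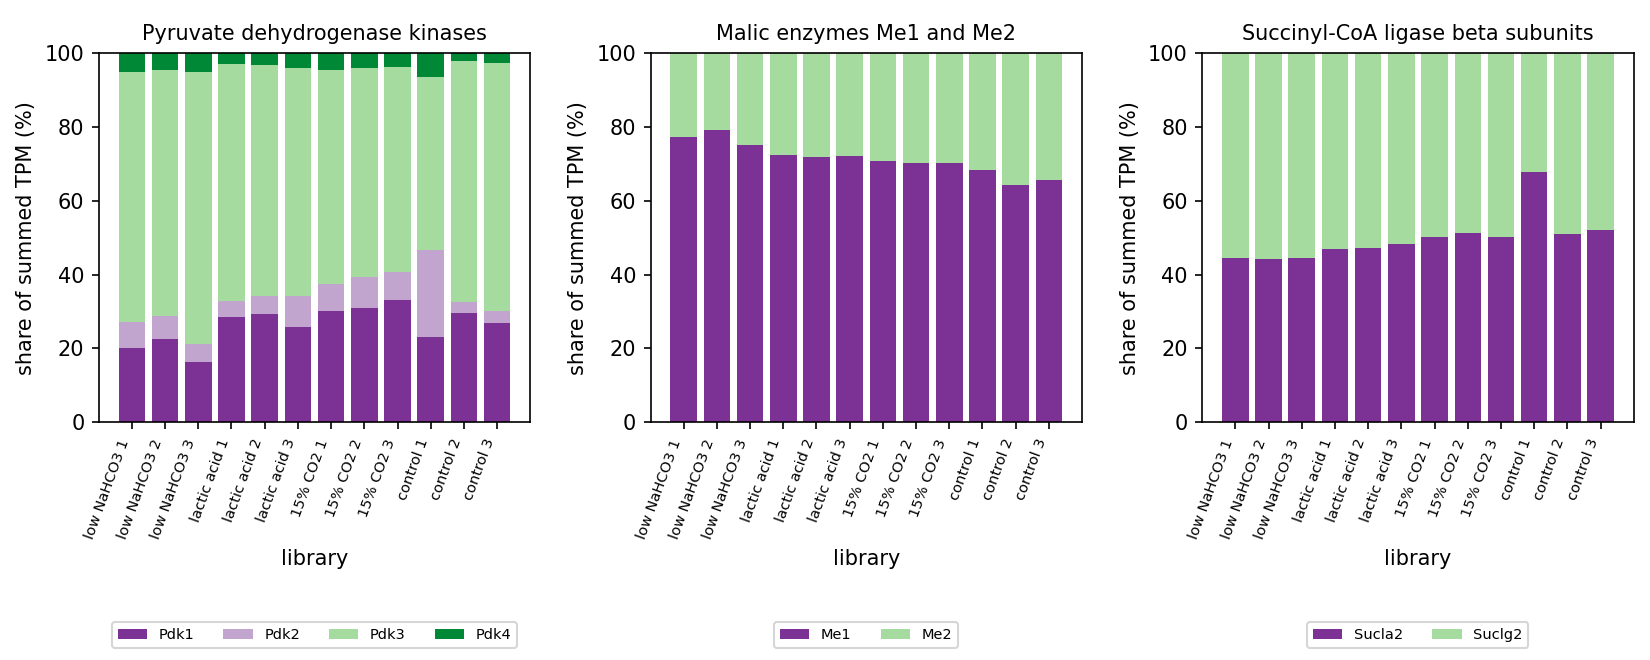
Share of the summed TPM (y axis, %) held by each paralogue in each of the 12 libraries (x axis), for the 4 pyruvate dehydrogenase kinases, the malic enzymes and the beta subunits of succinyl-CoA ligase. Control 1 differs from controls 2 and 3 by its Pdk2 share of 23.5% and its Sucla2 share of 67.7%, and low NaHCO3 has the highest Me1 and Suclg2 shares.

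Of the enzymes that link pyruvate to oxaloacetate and malate, Pcx and Me2 fell in low NaHCO3 and Me1 was not called. Pcx, pyruvate carboxylase, had 41.5, 46.03 and 39.7 TPM in the low-NaHCO3 libraries and 67.3, 68.6 and 51.7 TPM with lactic acid. Pcx was at 66.2, 69.9 and 58.8 TPM under 15% CO2, against 49.5, 55.2 and 59.6 TPM in controls. The low-NaHCO3 libraries were the lowest and the lactic acid and 15% CO2 libraries mostly the highest. Against control the log2 change was -0.36 ± 0.12 (SE; adjusted p 0.0272) in low NaHCO3, and -0.43 ± 0.12 (SE; adjusted p 0.00976) without control library 1. The call was lost under 8 of 35 alternatives, among them median-of-ratios scaling and leaving out low-NaHCO3 library 1 or 3 or control library 2 or 3 (log2 change -0.49 to -0.13, highest adjusted p 0.392). Me2, mitochondrial malic enzyme, averaged 44.4 ± 4.33 TPM in low NaHCO3, 57.4 ± 2.77 TPM with lactic acid and 55.8 ± 3.66 TPM under 15% CO2, against 64.8 ± 17.2 TPM in controls, and control library 1 at 44.99 TPM lay inside the low-NaHCO3 range. Its log2 change was -0.50 ± 0.17 (SE; adjusted p 0.0257), and -0.74 ± 0.09 (SE; adjusted p 2.95e-05) without that library. Median-of-ratios scaling ended the call, as did leaving out low-NaHCO3 library 1 or 2 or control library 2 or 3 (log2 change -0.81 to -0.26 over 35 alternatives, highest adjusted p 0.304). Me1, the cytosolic form, averaged 149 ± 2.22 TPM in low NaHCO3, 148 ± 7.20 TPM with lactic acid and 133 ± 7.53 TPM under 15% CO2, against 124 ± 24.1 TPM in controls and was called in neither fit. Me1 made up 77.1% ± 1.92 of the summed malic enzyme level in low NaHCO3, 72.0% ± 0.339 with lactic acid and 70.4% ± 0.214 under 15% CO2, against 66.0% ± 2.01 in controls (SD, n = 3 each).

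At isocitrate dehydrogenase Idh1 and the Idh3a subunit fell in low NaHCO3, and the partner subunits Idh3b and Idh3g rose. Idh1, the cytosolic NADP-dependent form, had 26.1, 30.5 and 22.1 TPM in the low-NaHCO3 libraries and 56.9, 54.9 and 45.9 TPM with lactic acid. Idh1 was at 51.9, 60.96 and 55.7 TPM under 15% CO2, against 61.01, 57.7 and 68.2 TPM in controls. Low-NaHCO3 libraries were all below the lowest of the others. The log2 change was -1.23 ± 0.13 (SE; adjusted p 2.02e-05), and -1.24 ± 0.14 (SE; adjusted p 1.58e-05) without control library 1. Idh3a, the catalytic alpha subunit of the mitochondrial NAD-dependent enzyme, had 109, 104 and 104 TPM in the low-NaHCO3 libraries and 158, 161 and 121 TPM with lactic acid. Idh3a was at 139, 159.8 and 131 TPM under 15% CO2, against 187, 179 and 169 TPM in controls. Low-NaHCO3 libraries were again the lowest and all controls the highest, and the log2 change was -0.75 ± 0.11 (SE; adjusted p 0.000267), and -0.71 ± 0.12 (SE; adjusted p 0.000311) without control library 1.

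The other subunits of that enzyme rose. Idh3b, the beta subunit, had 204, 211 and 209.6 TPM in the low-NaHCO3 libraries and 148, 150.4 and 153 TPM with lactic acid. Idh3b was at 167, 162 and 161 TPM under 15% CO2, against 166, 148 and 151 TPM in controls. Low-NaHCO3 libraries were above all others, with a log2 change of 0.43 ± 0.07 (SE; adjusted p 0.000408), and 0.47 ± 0.06 (SE; adjusted p 2.7e-05) without control library 1. Idh3g, the regulatory gamma subunit, had 173, 166 and 169 TPM in the low-NaHCO3 libraries and 146, 138 and 153 TPM with lactic acid. Idh3g was at 142, 141 and 131 TPM under 15% CO2, against 143, 125 and 135 TPM in controls. It too was highest in low NaHCO3, with a log2 change of 0.33 ± 0.08 (SE; adjusted p 0.00385), and 0.38 ± 0.07 (SE; adjusted p 0.000595) without control library 1; with quantile normalization the change of Idh3g was 0.23 and not called. The ratio of Idh3a to Idh3b levels, chosen after seeing the values, was 0.508 ± 0.0215 in low NaHCO3, 0.975 ± 0.159 with lactic acid and 0.880 ± 0.0919 under 15% CO2, against 1.15 ± 0.0478 in controls (SD, n = 3 each). Idh2, the mitochondrial NADP-dependent form, averaged 126 ± 2.15 TPM in low NaHCO3, 175 ± 19.5 TPM with lactic acid and 167 ± 20.5 TPM under 15% CO2, against 155 ± 31.5 TPM in controls. For Idh2 the low-NaHCO3 log2 change was -0.28 ± 0.15 (SE; adjusted p 0.135), and -0.46 ± 0.11 (SE; adjusted p 0.00344) without control library 1, in which it had 119 TPM. Cs averaged 299 ± 6.97 TPM in low NaHCO3, 336 ± 17.3 TPM with lactic acid and 319 ± 14.1 TPM under 15% CO2, against 315 ± 43.7 TPM in controls. Its log2 changes were -0.06 ± 0.10 (SE; adjusted p 0.614), and -0.18 ± 0.07 (SE; adjusted p 0.0375) without control library 1.

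**Figure D4:**
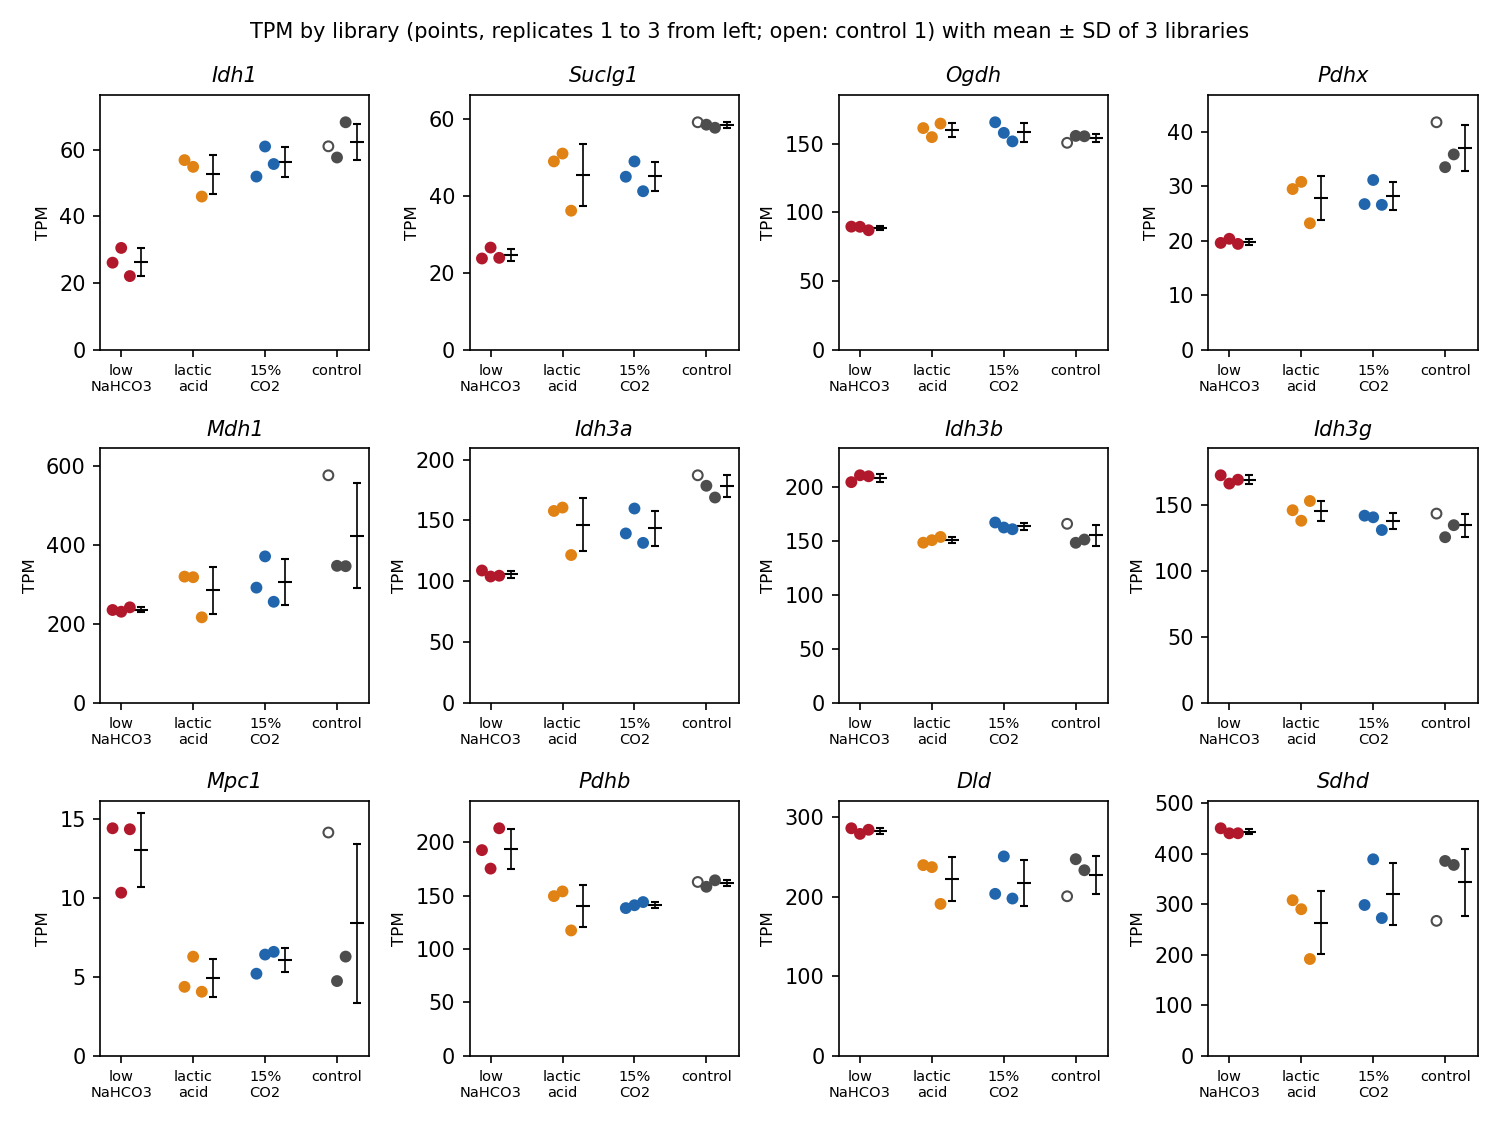
TPM (y axis, from 0) in each library for 12 genes, by group, with replicates 1 to 3 from left, an open point for control 1, and the mean ± SD of 3 libraries as a bar. Low-NaHCO3 points lie below all others for Idh1, Suclg1, Ogdh, Pdhx and Idh3a and above all others for Idh3b, Idh3g, Pdhb, Dld and Sdhd, and the control 1 point of Mpc1 and Mdh1 lies far from controls 2 and 3.

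From 2-oxoglutarate to succinate 3 of 5 genes fell and none rose, except that Dlst was called up with median-of-ratios scaling. Ogdh, the E1 component of 2-oxoglutarate dehydrogenase, had 89.5, 89.4 and 86.9 TPM in the low-NaHCO3 libraries and 161, 155 and 165 TPM with lactic acid. Ogdh was at 166, 158 and 152 TPM under 15% CO2, against 151, 156 and 155 TPM in controls. The low-NaHCO3 libraries were below all others, and the other 3 groups overlapped. The log2 change was -0.79 ± 0.07 (SE; adjusted p 5.09e-06), and -0.80 ± 0.06 (SE; adjusted p 1.19e-06) without control library 1. Suclg1, the alpha subunit common to both succinyl-CoA ligases, had 23.6, 26.5 and 23.8 TPM in the low-NaHCO3 libraries and 48.9, 50.9 and 36.1 TPM with lactic acid. Suclg1 was at 44.9, 48.9 and 41.1 TPM under 15% CO2, against 59.04, 58.4 and 57.6 TPM in controls. Its order ran from low NaHCO3 through lactic acid and 15% CO2, which overlapped, to the controls. For Suclg1 the low-NaHCO3 log2 change was -1.21 ± 0.12 (SE; adjusted p 1.69e-05), and -1.20 ± 0.13 (SE; adjusted p 1.41e-05) without control library 1. Sucla2, the ADP-forming beta subunit, averaged 65.2 ± 1.33 TPM in low NaHCO3, 88.2 ± 6.33 TPM with lactic acid and 84.4 ± 5.36 TPM under 15% CO2, against 99.4 ± 16.4 TPM in controls. Low-NaHCO3 libraries were the lowest, with a log2 change of -0.59 ± 0.11 (SE; adjusted p 0.00104), and -0.46 ± 0.08 (SE; adjusted p 0.000351) without control library 1. Suclg2, the GTP-forming beta subunit, averaged 81.6 ± 1.93 TPM in low NaHCO3, 98.2 ± 9.69 TPM with lactic acid and 82.5 ± 3.64 TPM under 15% CO2, against 75.1 ± 16.7 TPM in controls, overlapped the controls and was called in neither fit. Suclg2 held 55.6% ± 0.134 of the summed beta subunits in low NaHCO3, 52.6% ± 0.701 with lactic acid and 49.4% ± 0.526 under 15% CO2, against 32.3%, 48.9% and 47.9% in the controls. Dlst, the E2 partner of Ogdh, averaged 86 ± 2.87 TPM in low NaHCO3, 72.2 ± 2.66 TPM with lactic acid and 73.97 ± 4.29 TPM under 15% CO2, against 75 ± 5.40 TPM in controls, and was called against control in neither fit. The ratio of Ogdh to Dlst was 1.03 ± 0.0192 in low NaHCO3, 2.22 ± 0.150 with lactic acid and 2.14 ± 0.132 under 15% CO2, against 2.06 ± 0.115 in controls (SD, n = 3 each).

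Succinate dehydrogenase was called at 0 of its 4 subunits with 12 libraries and without control library 1, by limma. In either fit 0 of the 4 had an unadjusted p under 0.05. Over all genes tested, 7435 of 11996 and 8168 of 12023 had such a p in these 2 fits. With median-of-ratios scaling Sdhc and Sdhd were called up, at log2 changes of 0.39 and 0.59, and Sdha and Sdhb were not, at 0.11 and -0.05. Sdhd had 451, 441 and 441 TPM in the low-NaHCO3 libraries and 308, 290.1 and 191 TPM with lactic acid. Sdhd was at 298, 389 and 273 TPM under 15% CO2, against 267, 386 and 378 TPM in controls. Low-NaHCO3 libraries were above all others and close together, and its log2 change against control was 0.39 ± 0.20 (SE; adjusted p 0.12), and 0.22 ± 0.19 (SE; adjusted p 0.329) without control library 1. Sdha averaged 312 ± 7.28 TPM in low NaHCO3, 301 ± 23.7 TPM with lactic acid and 309 ± 23.8 TPM under 15% CO2, against 333 ± 27.2 TPM in controls. Sdhb, the iron-sulphur subunit, averaged 142 ± 1.31 TPM in low NaHCO3, 142 ± 30.1 TPM with lactic acid and 146 ± 26.9 TPM under 15% CO2, against 170.2 ± 17.5 TPM in controls. Its low-NaHCO3 libraries were below all controls, without passing the test. Sdhc, the other membrane anchor, averaged 166 ± 11.6 TPM in low NaHCO3, 149.8 ± 17.8 TPM with lactic acid and 155 ± 18 TPM under 15% CO2, against 146 ± 22.1 TPM in controls.

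Both malate dehydrogenases fell in low NaHCO3. Mdh1 had 235, 230.1 and 241 TPM in the low-NaHCO3 libraries and 319, 318 and 216 TPM with lactic acid. Mdh1 was at 291, 370.4 and 255 TPM under 15% CO2, against 576, 346 and 346 TPM in controls. The low-NaHCO3 libraries lay below all controls, control library 1 was the highest by far, and lactic acid replicate 3 was below every low-NaHCO3 library. The log2 change was -0.80 ± 0.22 (SE; adjusted p 0.00964), and -0.55 ± 0.17 (SE; adjusted p 0.0158) without control library 1. With control library 2 or 3 as the only control the call was lost (log2 change over 35 alternatives -0.996 to -0.363, highest adjusted p 0.0701). Mdh2, the mitochondrial form, averaged 257 ± 6.70 TPM in low NaHCO3, 273 ± 37.7 TPM with lactic acid and 261 ± 14.7 TPM under 15% CO2, against 317 ± 24.3 TPM in controls. For Mdh2 the low-NaHCO3 log2 change was -0.30 ± 0.11 (SE; adjusted p 0.0372), and -0.36 ± 0.10 (SE; adjusted p 0.0101) without control library 1. The call was lost under 13 of 35 alternatives, among them median-of-ratios scaling and leaving out any 1 of the low-NaHCO3 libraries, control library 2 or 3 or 15% CO2 library 1 (log2 change -0.46 to -0.10, highest adjusted p 0.408). Fh1, fumarase, averaged 114 ± 2.23 TPM in low NaHCO3, 104 ± 18.9 TPM with lactic acid and 102 ± 12.2 TPM under 15% CO2, against 107 ± 7.92 TPM in controls and was called in neither fit.

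Both aspartate aminotransferases, which exchange amino groups between glutamate and oxaloacetate, also fell. Got1, the cytosolic form, averaged 128 ± 7.66 TPM in low NaHCO3, 187 ± 26.5 TPM with lactic acid and 151 ± 8.96 TPM under 15% CO2, against 215 ± 73.03 TPM in controls, where control library 1 had 299.6 TPM. Its log2 change was -0.69 ± 0.19 (SE; adjusted p 0.00957), and -0.43 ± 0.11 (SE; adjusted p 0.00465) without that library. Got2, the mitochondrial form, averaged 144 ± 3.72 TPM in low NaHCO3, 153 ± 19.9 TPM with lactic acid and 146 ± 10.8 TPM under 15% CO2, against 179.8 ± 5.58 TPM in controls. For Got2 the low-NaHCO3 log2 change was -0.32 ± 0.10 (SE; adjusted p 0.0178), and -0.34 ± 0.10 (SE; adjusted p 0.0131) without control library 1. The call was lost under 7 of 35 alternatives, among them median-of-ratios scaling and leaving out low-NaHCO3 library 2 or control library 3 (log2 change -0.42 to -0.08, highest adjusted p 0.510). Glud1, glutamate dehydrogenase, averaged 178 ± 12.5 TPM in low NaHCO3, 152 ± 9.93 TPM with lactic acid and 144 ± 10.5 TPM under 15% CO2, against 172 ± 23.9 TPM in controls and was called in neither fit.

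With lactic acid none of the 36 genes passed the threshold against control in limma with 12 libraries, where 4.4% of the genes tested did (2.73% up and 1.68% down). At an unadjusted p under 0.05 there were 6, with Suclg2 higher and Pdhx, Mdh1, Got2, Idh3a and Suclg1 lower than control. Over all genes tested, 2824 of 11996 had such a p. The lowest adjusted p was that of Pdhx, with a log2 change of -0.40 ± 0.12 (SE; adjusted p 0.0829). Without control library 1, 4 of 36 (11.1%) were called, where 16.6% of all genes were (9.31% up and 7.34% down). Pdp1 at 0.50 ± 0.09 (SE; adjusted p 0.00522), Pdk2 at 0.77 ± 0.22 (SE; adjusted p 0.0378) and Pdk4 at 0.42 ± 0.13 (SE; adjusted p 0.0453) were up, and Me2 at -0.38 ± 0.09 (SE; adjusted p 0.018) was down. These 4 are regulators of pyruvate dehydrogenase and the mitochondrial malic enzyme, and in each of them control library 1 lay over 1.5 times from the other controls. With control library 2 as the only control, Pdp1 alone was called, and with control library 3 none were.

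Under 15% CO2 none of the 36 passed against control with 12 libraries, where 1.41% of the genes tested did (1.34% up and 0.0667% down). At an unadjusted p under 0.05 there were 8, all lower than control: Pdhx, Mdh2, Glud1, Got1, Mpc2, Got2, Idh3a and Suclg1. Over all genes tested, 1901 of 11996 had such a p. Suclg1, for example, had a log2 change of -0.37 ± 0.12 (SE; adjusted p 0.179). Without control library 1, 3 of 36 (8.33%) were called, where 7.62% of all genes were (5.99% up and 1.63% down). Pdk2 was up at 1.21 ± 0.22 (SE; adjusted p 0.01), Pdk4 up at 0.68 ± 0.13 (SE; adjusted p 0.0109), and Me2 down at -0.42 ± 0.09 (SE; adjusted p 0.0204). With control library 2 as the only control Pdk4 alone was called, and with control library 3 none were. The comparisons with control share the same control libraries, so that like values under lactic acid and 15% CO2 are not independent.

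Comparisons between treatments leave the controls out of the difference, although those below share the low-NaHCO3 libraries. Control library 1 enters them only through the estimate of the spread and the filter. Low NaHCO3 against 15% CO2 gave 17 calls among the 36, 7 up and 10 down, where 52.7% of the genes tested were called (18.1% up and 34.6% down). Low NaHCO3 against lactic acid gave 18, 7 up and 11 down, where 50% were called (18.3% up and 31.7% down). All of these calls also held without control library 1, in a spread then estimated from 11 libraries. That fit called 23 against 15% CO2, 10 up and 13 down, where 69.9% of all genes were called (24.2% up and 45.8% down). Against lactic acid it called 23, 9 up and 14 down, where 68.1% were called (24.8% up and 43.3% down). Mpc1 was higher in low NaHCO3 than under 15% CO2, at a log2 change of 0.98 ± 0.31 (SE; adjusted p 0.0193), and than with lactic acid, at 1.26 ± 0.31 (SE; adjusted p 0.00588). Pdhb was higher by 0.45 ± 0.11 (SE; adjusted p 0.00498) and 0.47 ± 0.11 (SE; adjusted p 0.00432) in the same comparisons. Dld was higher than under 15% CO2, at 0.39 ± 0.12 (SE; adjusted p 0.0212), and Sdhd was higher than with lactic acid, at 0.78 ± 0.20 (SE; adjusted p 0.00794). On the other side Idh1 was lower than under 15% CO2, at -1.08 ± 0.13 (SE; adjusted p 5.02e-05), and than with lactic acid, at -0.98 ± 0.13 (SE; adjusted p 0.000111). Suclg1 was lower at -0.84 ± 0.12 (SE; adjusted p 0.000213) and -0.84 ± 0.12 (SE; adjusted p 0.000246). Pdk1 was lower than under 15% CO2, at -0.85 ± 0.13 (SE; adjusted p 0.000283), and Ogdh was lower than with lactic acid, at -0.85 ± 0.07 (SE; adjusted p 4.66e-06). The calls of Pdhb, Idh1, Suclg1, Pdk1, Ogdh and Sdhd named here held under all 33 alternatives. Those of Mpc1 and Dld against 15% CO2 were lost under 4 and 5 of them, among them leaving out low-NaHCO3 library 1 or 3 or 15% CO2 library 1, with highest adjusted p of 0.0665 for Mpc1 and 0.0924 for Dld. In both comparisons Idh3b and Idh3g rose while Idh3a fell, and Dlst rose while Ogdh fell, although against 15% CO2 Idh3a lost its call with median-of-ratios scaling and Idh3b, Idh3g and Dlst lost theirs with quantile normalization. With median-of-ratios scaling the splits became 14 up and 7 down against 15% CO2, and 12 up and 8 down against lactic acid. Over all 11984 genes tested they were 3551 up and 2930 down, and 3438 up and 2790 down. With quantile normalization the splits of the 36 were 3 up and 11 down, and 6 up and 14 down. Over all 11996 genes tested they were 2635 up and 2677 down, and 2505 up and 2534 down.

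Under 15% CO2 against lactic acid 0 of the 36 genes were called by limma, where 0.333% of the genes tested were (0.275% up and 0.0584% down), and 0 had an unadjusted p under 0.05. Over all genes tested, 1019 of 11996 had such a p. Without control library 1 the unadjusted count was 7, again with 0 called, where 4.8% of all genes were called (3.09% up and 1.71% down). The unadjusted count over all genes was then 2428 of 12023. Among those 7 were Pdp1, lower at -0.31 ± 0.08 (SE; adjusted p 0.0502), and Suclg2, lower at -0.25 ± 0.08 (SE; adjusted p 0.101).

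Other genes of the pathway were read from a list of 51, of which 44 were tested. In low NaHCO3, 32 of the 44 were called (72.7%), 3 up and 29 down. Their median log2 change was -0.77, beside -0.19 over all genes tested; without control library 1, 34 were called, 3 up and 31 down. The share called over all genes tested was 56.2% with 12 libraries and 64.6% without control library 1. Named here are the 4 with the largest falls in the fit of 12 libraries; without control library 1 the order differed, and Slc1a5, Slc25a10, Lipt2 and Slc25a13 fell more than Abat and Gpt. Slc7a11, the cystine-glutamate exchanger, had 1.49, 2.35 and 1.82 TPM in the low-NaHCO3 libraries and 15.6, 15.8 and 13.9 TPM with lactic acid. Slc7a11 was at 14.02, 15.7 and 14.96 TPM under 15% CO2, against 16.2, 17.2 and 15.7 TPM in controls. It was several-fold lower in every low-NaHCO3 library than in any other library, with a log2 change of -2.60 ± 0.12 (SE; adjusted p 2.46e-07), and -2.61 ± 0.13 (SE; adjusted p 6.48e-08) without control library 1. Slc38a2, a sodium-coupled glutamine transporter, had 35.1, 36.02 and 29.4 TPM in the low-NaHCO3 libraries and 120.3, 122 and 108 TPM with lactic acid. Slc38a2 was at 128, 139 and 131 TPM under 15% CO2, against 121, 139 and 138 TPM in controls. The low-NaHCO3 libraries were below all others, with a log2 change of -1.96 ± 0.10 (SE; adjusted p 2.67e-07), and -2.02 ± 0.09 (SE; adjusted p 4.83e-08) without control library 1. Abat, which breaks down the transmitter GABA, had 5.52, 5.23 and 5.58 TPM in the low-NaHCO3 libraries and 11.3, 10.6 and 12.01 TPM with lactic acid. Abat was at 12.1, 13.1 and 12.4 TPM under 15% CO2, against 107, 10.8 and 11.5 TPM in controls. Control library 1 was far above the rest, and the log2 change was -1.96 ± 0.64 (SE; adjusted p 0.0222), and -0.92 ± 0.09 (SE; adjusted p 5.3e-06) without it. Gpt, the cytosolic alanine aminotransferase, was near the filter and had 0.271, 0.340 and 0.272 TPM in the low-NaHCO3 libraries and 1.68, 2.04 and 1.71 TPM with lactic acid. Gpt was at 2.67, 2.83 and 2.42 TPM under 15% CO2, against 3.57, 1.49 and 2.35 TPM in controls. It was lowest in low NaHCO3, with a log2 change of -1.38 ± 0.21 (SE; adjusted p 0.000269), and -1.16 ± 0.15 (SE; adjusted p 4.69e-05) without control library 1.

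Among the genes called up were Lias and Oat. Lias, the lipoic acid synthase that makes the cofactor of the E2 components, had 38.7, 37.1 and 37.2 TPM in the low-NaHCO3 libraries and 30.2, 28.5 and 25.4 TPM with lactic acid. Lias was at 26.8, 28.1 and 27.1 TPM under 15% CO2, against 29.8, 29.2 and 29.1 TPM in controls. For Lias the low-NaHCO3 log2 change was 0.35 ± 0.08 (SE; adjusted p 0.00346), and 0.36 ± 0.08 (SE; adjusted p 0.00199) without control library 1. Oat, ornithine aminotransferase, was higher at 0.43 ± 0.15 (SE; adjusted p 0.0313), and 0.32 ± 0.15 (SE; adjusted p 0.0745) without control library 1. With lactic acid 2 of the 44 fell (4.55%, where 4.4% of all genes tested were called), Slc25a11 (the mitochondrial 2-oxoglutarate-malate carrier) at -0.44 ± 0.09 (SE; adjusted p 0.0291) and Acly (cytosolic ATP citrate lyase) at -0.29 ± 0.07 (SE; adjusted p 0.0444). The count was 6, all down, without control library 1 (13.6%, where 16.6% of all genes were called). Under 15% CO2 0 of the 44 were called by limma in either fit, with 2 at an unadjusted p under 0.05, and 10 without control library 1. Over all genes tested, 1901 of 11996 and 3147 of 12023 had such a p in these 2 fits.

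Of 7 transcription factors tied to mitochondrial genes, 4 were called in low NaHCO3 (57.1%), 1 up and 3 down, where 56.2% of all genes were. Leaving out control library 1, 5 were called (71.4%), where 64.6% of all genes were, with Nrf1 also down at -0.35 ± 0.10 (SE; adjusted p 0.00962). Myc, a driver of glutamine use in proliferating cells, had 125, 128 and 119 TPM in the low-NaHCO3 libraries and 116, 116 and 144 TPM with lactic acid. Myc was at 113, 105 and 114 TPM under 15% CO2, against 47.7, 83.97 and 90.2 TPM in controls, with a log2 change of 0.79 ± 0.20 (SE; adjusted p 0.00564). It was higher in all treated libraries than in all controls, and with lactic acid it also passed, at 0.80 ± 0.20 (SE; adjusted p 0.0465). The log2 change of Myc without control library 1 was 0.50 ± 0.10 (SE; adjusted p 0.000822) in low NaHCO3 and 0.51 ± 0.10 (SE; adjusted p 0.00703) with lactic acid. Hif1a, the hypoxia factor known to induce Pdk1, fell in low NaHCO3 at -0.49 ± 0.12 (SE; adjusted p 0.00639), and -0.67 ± 0.06 (SE; adjusted p 4.17e-06) without control library 1. Tfam, a mitochondrial DNA transcription factor, fell at -0.45 ± 0.17 (SE; adjusted p 0.0375), and -0.61 ± 0.15 (SE; adjusted p 0.0039) without that library. Ppargc1a, a coactivator of mitochondrial genes, had 0.322, 0.266 and 0.162 TPM in the low-NaHCO3 libraries and 2.30, 3.28 and 3.43 TPM with lactic acid. Ppargc1a was at 3.46, 3.16 and 4.11 TPM under 15% CO2, against 37.9, 2.59 and 2.58 TPM in controls. It was lowest in low NaHCO3, and control library 1 was far above all others, so that the log2 change was -2.67 ± 0.71 (SE; adjusted p 0.00839) with that library and -1.52 ± 0.15 (SE; adjusted p 8.3e-06) without it. Under 15% CO2 0 of the 7 were called by limma with 12 libraries, with 1 at an unadjusted p under 0.05. Over all genes tested, 1901 of 11996 had such a p.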

How the data were processed

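Total RNA of C8-D1A cells was sequenced in 12 libraries, 4 groups of 3. The submitters' processing notes name fastp 0.22.0, HISAT2 2.1.0 and the build GRCm39. How reads were counted, on which annotation and with what strand setting is not given in the sources used here. The authors deposited TPM values, which sum to 1000000 in each library. TPM keeps no depth, so the depth behind each value is unknown, and 14531 to 17319 genes per library were above 0. Of the 21959 gene IDs, 21851 carry a symbol.

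Genes with at least 1 TPM in all 3 libraries of any group were tested with limma 3.58.1 (R 4.3.3) on log2(TPM + 1), with group means over all 12 libraries, a trended empirical Bayes variance, two-sided p-values and Benjamini-Hochberg adjustment over all genes tested (threshold 0.05). Fold changes on this scale understate the change of low genes. The fitting code was tested on simulated data. Other settings were a pseudocount of 0.1, no filter, a filter of 5 TPM, median-of-ratios scaling, quantile normalization, fitting only the groups compared, a replicate block, and leaving out libraries; removal of a length trend and the joint omissions were added after seeing the data.

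The 36 genes, the 51 other pathway genes, the 7 transcription factors and the marker lists were chosen with earlier results of these data known. Values in every library are given for genes called in the same direction with and without control library 1 (up to 6 per direction against control, up to 3 between treatments, up to 4 of the other pathway genes), and for the Pdk genes and Pcx. Those of the transcription factors, and the subunit ratios, were chosen after seeing the values. Promoter windows came from RefSeq (GRCm38.p6); Idh3a, Me2, Pdp1 and Sdhc had none.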

Additional observations from a re-analysis of the deposited data

How the results depend on the processing

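Against control, low NaHCO3 gave 17 calls among the 36 genes, and 13 to 28 when libraries were left out, alone or together (13 to 22 with 1 left out). Calls numbered 28 without control library 1 combined with median-of-ratios scaling (15 up, 13 down), with the length trend removed (14 up, 14 down), and also without control library 1, lactic acid library 3 and 15% CO2 library 3 together (11 up, 17 down). Over all genes tested, the first and second of these settings called 7953 of 11999 and 7969 of 12023. Lactic acid against control gave 0 calls with all libraries, 2 with median-of-ratios scaling, 0 to 5 with libraries left out, and without control library 1 gave 10 with median-of-ratios scaling, 8 with the length trend removed and 8 with quantile normalization. Over all genes tested, median-of-ratios scaling of 12 libraries called 816 of 11984. The last 3 settings called 2722 of 11999, 2792 of 12023 and 2726 of 12023. For 15% CO2 against control the counts were 0, then 0 to 8 with libraries left out, and without control library 1 they were 8, 8 and 6 in the same 3 settings. The highest of these leave-outs, 8, was without control library 1 and lactic acid library 3. Over all genes tested, the 3 settings called 1355 of 11999, 1510 of 12023 and 1156 of 12023 for 15% CO2 against control. Low NaHCO3 against 15% CO2 gave 17, and 29, 28 and 27 in those 3 settings (12 to 24 with libraries left out). The same settings called 8623 of 11999, 8590 of 12023 and 7898 of 12023 over all genes tested. For 15% CO2 against lactic acid the counts were 0, then 4, 4 and 3 in those settings, and 0 to 4 with libraries left out. Those settings called 839 of 11999, 884 of 12023 and 925 of 12023 over all genes tested. Calls among the other pathway genes with lactic acid numbered 2, and 6 without control library 1. Among fits that only left out libraries, the share over all genes is given here only for the fit without control library 1. In low NaHCO3 against control that share moved from 56.2% to 64.6%. The ranges with libraries left out therefore cannot be read as particular to the 36 genes. The cause of these moves was not tested.

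Kinases changed sign with control library 1. Over all sets of libraries left out, the log2 change of Pdk2 ran between -0.75 and 0.87 for low NaHCO3 and between -0.72 and 0.94 for lactic acid against control, and that of Pdk4 between -0.33 and 0.52 for lactic acid. Without control library 1, Pdk2 changed by 0.90 in low NaHCO3 with median-of-ratios scaling, 0.90 with the length trend removed and 1.08 with quantile normalization; with lactic acid it changed by 0.77 and 0.75 in the first and second of these settings, and Pdk4 by 0.42 and 0.41. Of the log2 changes of named genes compared with their alternatives, 1044 kept direction and side of the threshold. With the direction kept, 46 gained a call and 21 lost one. A further 61 changed sign without a call in either fit, and 29 changed sign with a call in the main or the alternative fit. Fits with 1 control library assume that it varies like the other groups.

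Deviations of same-numbered libraries correlated at -0.149 to 0.49 (median -0.0045) over 18 pairs of libraries. Those of different-numbered libraries correlated at -0.48 to 0.394 (median 0.006) over 36 pairs. Lactic acid with 15% CO2 held the highest same-numbered values, 0.49 for replicate 3 and 0.351 for replicate 2. Whether replicate numbers mark shared handling was not tested. With the replicate block the calls were 17 (4 up, 13 down) for low NaHCO3 against control, 17 against 15% CO2, 18 against lactic acid, and 0 for the other comparisons. The share of all genes called with that block is not given here. Depth is unknown, so precision at the lowest levels (Pdk4, Mpc1, Gpt, Ppargc1a) cannot be given.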
